A study of Homo sapiens with 4 samples.

Results

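The genes followed here were 9 of the 58735 in the table of counts, those that make prostaglandin E2, break it down, carry it or receive it. They were chosen by name, with earlier results of these data known. The 9 genes were PLA2G4A, PTGS1, PTGS2, PTGES, PTGES2, HPGD, SLCO2A1, PTGER2 and PTGER4. All 9 passed the filter on low counts that left 15817 genes for testing. RNA of HCC1954, an HER2-positive human breast cancer cell line, was sequenced in 4 samples. In 2 of them, called shCON, the cells carried a scrambled hairpin, and in the other 2, called shZDHHC15, the hairpin was directed at ZDHHC15, an enzyme that attaches palmitate to proteins. Both groups had received GIPZ hairpin vectors and grew in RPMI-1640 with fetal bovine serum, penicillin and streptomycin, and no drug is listed for either. The knockdown is called stable in the series design, while the sample protocol gives transient transfection with Lipofectamine and harvest after 36 h. The study's methods also mention monoclonal cultures screened for the hairpins. Whether the samples numbered 1 and 2 came from separate cultures, clones or hairpins is not stated, so p-values measure only the spread between these samples, which may be technical.

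Prostaglandin E2 is made in steps. Cytosolic phospholipase A2 frees arachidonic acid from membranes, a cyclooxygenase turns it into prostaglandin H2, and a prostaglandin E synthase turns that into prostaglandin E2. The product leaves the cell, acts on EP receptors of the same or nearby cells, and is taken up by a transporter and oxidised to an inactive form by 15-hydroxyprostaglandin dehydrogenase. In breast and colon cancers the inducible cyclooxygenase, PTGS2 or COX-2, is the best known member, and anti-inflammatory drugs such as aspirin act on it and on PTGS1.

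The 4 libraries held between 17560982 and 19118704 counts. ZDHHC15 had 17617 and 15716 counts in shCON and 0 in both shZDHHC15 samples, which put it at least 5890-fold lower against a floor of 3 counts per library (edgeR, adjusted p = 1.86e-14). Of all genes tested, 42.0% passed an adjusted p of 0.05, with 21.7% higher and 20.3% lower in shZDHHC15, and 7.51% were higher and 3.79% lower by more than 1 on the log2 scale. Against that background 5 of the 9 genes were higher, 1 was lower and 3 were not called, and past a log2 change of 1 there were 3 higher and 1 lower. Their median log2 change was 0.30, beside 0.02 over all genes tested. PLA2G4A and HPGD would not have passed the filter on their shCON counts, so their passing rested on the group in which they were high. Of the other 7 genes 3 were higher, 1 was lower and 3 were not called. Past a log2 change of 1 these 7 held only PTGS2 (2.51) and PTGER4 (-1.62), and the median of 0.30 includes PLA2G4A and HPGD. Of 7 epithelial markers 5 were lower, with KRT8 and KRT18, keratins of simple epithelia, at -1.62 and -1.58 on the log2 scale, while KRT19 was higher (0.44) and CDH1 was not called (-0.05). Their summed level was 16500 to 17900 CPM, counts scaled to the library size, in shCON and 9470 to 9610 in shZDHHC15. Over 12 leukocyte and platelet markers the sum was 10.0 to 12.3 CPM in shCON and 6.22 to 8.2 in shZDHHC15. Most of it was CSF1R, at 8.39 and 10.5 CPM in shCON and 3.65 and 5.35 in shZDHHC15, so the lower sum mostly restates that gene. The T cell marker CD3E and the platelet markers PF4 and GP9 had 0 counts in all 4 samples. PPBP, another platelet marker of the list, had 9 and 7 counts in shCON and 6 and 19 in shZDHHC15 and was below the filter. The 2 tested members of that list went opposite ways, CSF1R at -1.06 and CD14 at 1.61 on the log2 scale. For 4 endothelial markers the sum was 57.1 CPM in each shCON sample and 101 to 107 in shZDHHC15. PECAM1 and CDH5 were higher (2.91 and 0.65 on the log2 scale) and KDR was lower (-0.64). For 5 fibroblast markers the sum was 5.82 to 7.17 CPM in shCON and 8.51 to 11.6 in shZDHHC15, with LUM at 0 throughout. Most of that sum was COL1A1, at 5.49 and 7.11 CPM in shCON and 11.5 and 8.2 in shZDHHC15. It was the only tested member of the list and was higher (0.65 on the log2 scale, edgeR adjusted p = 0.0232). All samples were of the HCC1954 line, so RNA of a marker gene does not by itself show cells of that type. The part of these shifts in the results was not tested. In bulk RNA, fewer cells with a marker's RNA and less of that RNA per cell cannot be told apart.

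The promoters of the members that moved most are shown so that the sequence ahead of each start can be read beside its change. Of the 9 genes, 8 had an entry among 35116 RefSeq promoters (GRCh38.p14), and SLCO2A1 had none. Each run is the 250 bases before the start of transcription, written 5′ to 3′ on the strand of the gene, and capitals mark matches to the motifs searched on both strands, except that TATAAA was searched on the gene's strand alone. PTGS2 lies at chr1:186680424-186680673 on the minus strand, PLA2G4A at chr1:186828699-186828948 on the plus strand, HPGD at chr4:174522489-174522738 on the minus strand and PTGER4 at chr5:40679665-40679914 on the plus strand.
PTGS2: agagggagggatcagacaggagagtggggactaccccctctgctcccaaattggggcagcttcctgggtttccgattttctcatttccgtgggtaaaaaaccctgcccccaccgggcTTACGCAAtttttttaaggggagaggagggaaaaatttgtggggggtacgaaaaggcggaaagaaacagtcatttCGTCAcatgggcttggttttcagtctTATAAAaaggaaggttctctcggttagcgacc
PLA2G4A: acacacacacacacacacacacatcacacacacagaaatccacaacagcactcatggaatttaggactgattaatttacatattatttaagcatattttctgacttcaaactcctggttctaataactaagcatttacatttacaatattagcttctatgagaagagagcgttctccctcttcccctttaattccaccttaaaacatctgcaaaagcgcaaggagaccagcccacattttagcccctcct
HPGD: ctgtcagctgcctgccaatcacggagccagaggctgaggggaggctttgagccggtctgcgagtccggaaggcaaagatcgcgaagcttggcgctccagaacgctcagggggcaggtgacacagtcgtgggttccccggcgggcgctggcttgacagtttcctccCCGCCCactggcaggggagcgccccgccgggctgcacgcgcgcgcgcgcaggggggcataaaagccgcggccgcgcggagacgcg
PTGER4: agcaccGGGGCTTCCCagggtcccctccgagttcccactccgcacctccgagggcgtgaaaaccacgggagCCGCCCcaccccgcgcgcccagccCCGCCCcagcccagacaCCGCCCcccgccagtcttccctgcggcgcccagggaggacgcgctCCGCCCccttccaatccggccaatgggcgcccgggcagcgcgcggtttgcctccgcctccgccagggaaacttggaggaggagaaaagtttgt

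In the PTGS2 promoter the capitals mark a C/EBP-type match, TTNCNNAA, 133 to 126 bases before the start, part of the cAMP response element, CGTCA, at 58 to 54, and TATAAA at 32 to 27. These motifs occur in 33.2%, 21.2% and 6.8% of all promoters of that length. The PTGER4 promoter holds the NF-kB consensus at 244 to 235 bases before the start, found in 5.21% of promoters, and 4 GC boxes, GGGCGG, found in 42.6%. HPGD holds 1 GC box, and PLA2G4A none of the motifs searched, which also included the TEAD motif GGAATG (11.9% of promoters), the AP-1 motif TGANTCA (6.57%) and the STAT motif TTCNNNGAA (6.57%). G and C made up 38.8% of the PLA2G4A run, 50.4% of that of PTGS2, 70.8% of that of HPGD and 72.8% of that of PTGER4, against a median of 58.0% over all promoters. The motifs were chosen after the counts and the sequences had been seen, and a match is a run of letters and not a measured site. Only exact matches are marked, so a run that misses a motif by 1 letter stays in lower case, and no capitals does not mean no site. HPGD has 2 starts in the table, of which the first listed is shown, and the counts do not tell starts apart.

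The first step is the release of arachidonic acid. PLA2G4A, the cytosolic phospholipase A2 (chromosome 1, 186828953 to 186988981, GRCh38), had 4 and 7 counts in shCON and 82 and 69 in shZDHHC15. Both shZDHHC15 samples lay far above both shCON samples, although all 4 counts were low. The level was 0.317 ± 0.138 CPM in shCON and 3.96 ± 0.628 in shZDHHC15 (SD, n = 2), and the log2 change was 3.63 (SE 0.422, edgeR adjusted p = 9.39e-06). PLA2G4A passed the filter only through its shZDHHC15 counts, the group in which it was high. With at least 10 counts asked of every sample it was not tested.

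Both cyclooxygenases rose. PTGS1, the constitutive form (chromosome 9, 122370530 to 122395703), had 210 and 174 counts in shCON and 435 and 333 in shZDHHC15. The groups did not overlap, and the first shZDHHC15 sample was the highest. Its log2 change was 0.88 (SE 0.171, 95% interval 0.52 to 1.25, edgeR adjusted p = 0.000833). PTGS2, the inducible form (chromosome 1, 186671791 to 186680427, minus strand), had 596 and 493 counts in shCON and 3385 and 3340 in shZDHHC15. The samples of each group lay close together and the groups far apart. Its level went from 31.0 ± 2.45 CPM to 176 ± 8.23 CPM (SD, n = 2), a 5.68-fold difference (log2 change 2.51, SE 0.107, 95% interval 2.28 to 2.73, edgeR adjusted p = 1.98e-10).

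Within each sample PTGS2 was set against PTGS1, per kilobase of gene length. The ratio was 3.12 and 3.11 in shCON and 8.55 and 11.0 in shZDHHC15. PTGS2 was thus the more abundant cyclooxygenase RNA in all 4 samples, and the ratio was 3.12-fold higher in shZDHHC15, with no overlap. An exact permutation test over samples (two-sided) gave p = 0.333, the smallest that 2 samples against 2 allow.

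The prostaglandin E synthases had small differences. PTGES, the microsomal synthase that works with PTGS2 (chromosome 9, 129738331 to 129753047, minus strand), had 15827 and 16346 counts in shCON and 20327 and 20729 in shZDHHC15. Both shZDHHC15 samples were higher, but the difference did not pass the limit (log2 change 0.23, SE 0.0882, 95% interval 0.04 to 0.41, edgeR adjusted p = 0.0522). It did pass with scaling by library size alone (0.30, edgeR adjusted p = 0.00757) and with at least 10 counts asked of every sample (edgeR adjusted p = 0.0452). Library size alone also moved the median log2 change of all genes from 0.02 to 0.09. The log2 change of PTGES was 0.13 without shCON 1 and 0.30 without shCON 2. PTGES2, the second membrane-associated synthase (chromosome 9, 128120693 to 128128462, minus strand), had 3110 and 3024 counts in shCON and 3901 and 4341 in shZDHHC15. Again both shZDHHC15 samples were the higher ones, with a log2 change of 0.30 (SE 0.0907, edgeR adjusted p = 0.0154). That call was lost without the filter on low counts (edgeR adjusted p = 0.0614) and without shZDHHC15 1 (0.057) or shZDHHC15 2 (0.149). The ratio of PTGES to PTGES2 per kilobase was 8.16 and 8.66 in shCON and 8.35 and 7.65 in shZDHHC15, and here the groups overlapped.

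Of the genes that end the signal, the enzyme rose and the transporter was not called. HPGD, 15-hydroxyprostaglandin dehydrogenase (chromosome 4, 174490177 to 174523154, minus strand), had 11 and 9 counts in shCON and 151 and 100 in shZDHHC15. The shZDHHC15 samples differed from each other by more than those of shCON, and both lay far above them. The log2 change was 3.51 (SE 0.378, 95% interval 2.71 to 4.32, edgeR adjusted p = 4.3e-06). HPGD too passed the filter only through its shZDHHC15 counts, and it was not tested when at least 10 counts were asked of every sample. SLCO2A1, the transporter that takes prostaglandins up (chromosome 3, 133928145 to 134052184, minus strand), had 37 and 25 counts in shCON and 20 and 19 in shZDHHC15. Its shCON samples were the higher ones, but the log2 difference of -0.79 (SE 0.369) did not pass the limit (edgeR adjusted p = 0.101).

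Among EP receptors, PTGER4 fell. PTGER4, the Gs-coupled EP4 receptor (chromosome 5, 40679498 to 40693735), had 1093 and 1066 counts in shCON and 320 and 446 in shZDHHC15. Both shZDHHC15 samples lay well below shCON, at 5.04 ± 0.988 CPM per kilobase of gene length against 15.5 ± 0.579 (SD, n = 2). This is 3.08-fold lower (log2 change -1.62, SE 0.133, 95% interval -1.91 to -1.34, edgeR adjusted p = 2.52e-07). PTGER2, the other Gs-coupled receptor, EP2 (chromosome 14, 52314305 to 52328606), had 22 and 13 counts in shCON and 14 and 26 in shZDHHC15. The groups overlapped, and the interval of its log2 change, -0.87 to 1.01, held changes of either direction (edgeR adjusted p = 0.92). The ratio of PTGER4 to PTGER2 per kilobase was 31.0 and 51.2 in shCON and 14.3 and 10.7 in shZDHHC15, with an exact permutation p of 0.333. PTGER2 had few counts and was not called, so this ratio (log2 change -1.69) mostly restates the fall of PTGER4 and is no separate result. The remaining prostanoid receptors were all below the filter: PTGDR and PTGIR had no count, and PTGER1, PTGER3, PTGDR2, PTGFR and TBXA2R had 10 counts or fewer in each sample.

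**Figure D1:**
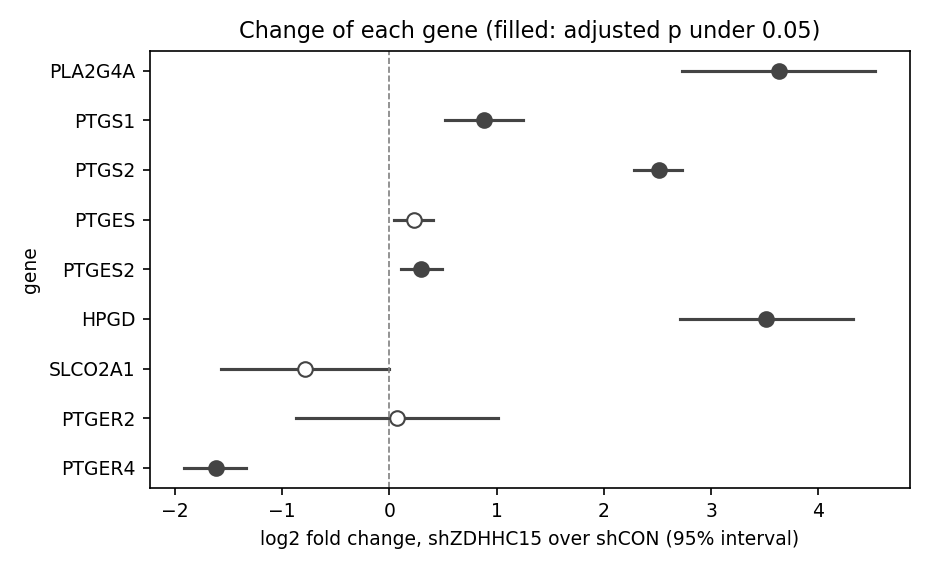
Log2 fold change of each of the 9 genes, shZDHHC15 over shCON, from the edgeR fit (points) with its 95% interval (lines); filled points passed an adjusted p of 0.05. PLA2G4A (3.63), HPGD (3.51) and PTGS2 (2.51) lie farthest to the right, and PTGER4 (-1.62) farthest to the left. PLA2G4A and HPGD passed the filter on low counts only through their shZDHHC15 samples.

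Compared per kilobase of gene length, the 9 genes spanned more than 3 orders of magnitude in shCON. PTGES was highest at 484 CPM per kilobase, followed by PTGES2 at 57.6, PTGER4 at 15.5, PTGS2 at 5.88, PTGS1 at 1.89, PTGER2 at 0.40, SLCO2A1 at 0.179, PLA2G4A at 0.110 and HPGD at 0.103. Of these neighbours, PLA2G4A and HPGD overlapped between samples. In shZDHHC15 PTGS2, at 33.4, stood above PTGER4, at 5.04, while PLA2G4A, at 1.38, and HPGD, at 1.19, again overlapped and stood above PTGER2 and SLCO2A1. PTGES took 85.1% and 86.0% of the summed level of the 9 genes in shCON and 83.3% and 82.7% in shZDHHC15. The share of PTGS2 was 1.15% and 0.934% in shCON and 4.99% and 4.79% in shZDHHC15, and that of PTGER4 2.81% and 2.69% against 0.628% and 0.852%.

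**Figure D2:**
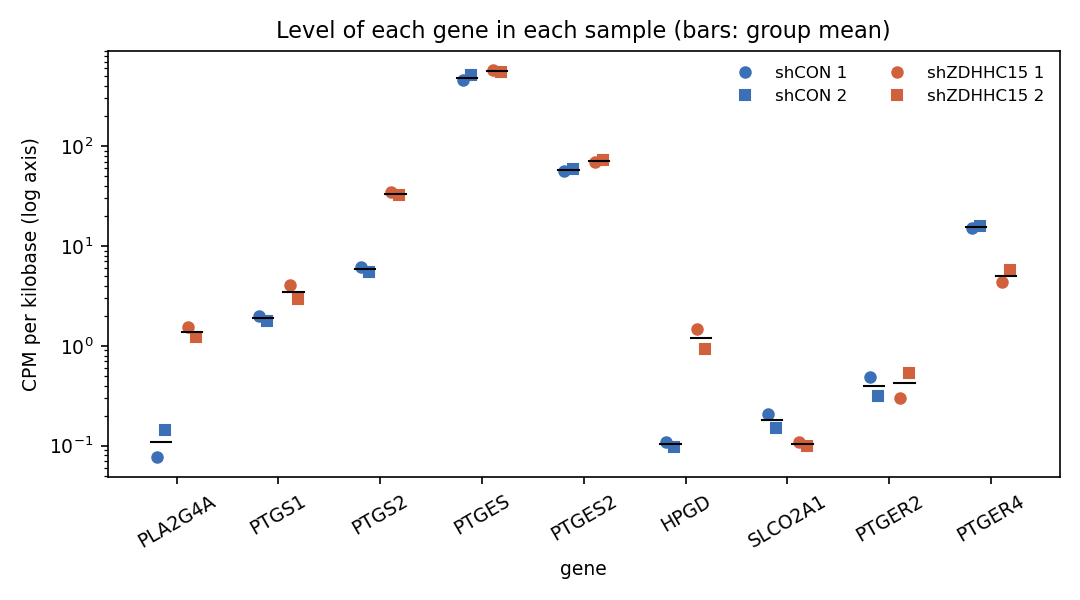
Level of each of the 9 genes in each sample, in CPM per kilobase of gene length on a log axis; circles are sample 1, squares sample 2, and short bars the group mean. PTGS2 and PTGER4 change places between the groups, and PLA2G4A and HPGD move up from the bottom.

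The RNA of PTGES, a synthase, was also set beside that of HPGD, which inactivates the product. The ratio of PTGES to HPGD per kilobase was 4200 and 5300 in shCON and 393 and 604 in shZDHHC15, a log2 change of -3.27. PTGES stayed far above HPGD in all 4 samples, and the exact permutation p was again 0.333. HPGD had only 11 and 9 counts in shCON, and PTGES was not called. The lower ratio thus mostly restates the rise of HPGD (log2 change 3.51) and is no separate result.

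**Figure D3:**
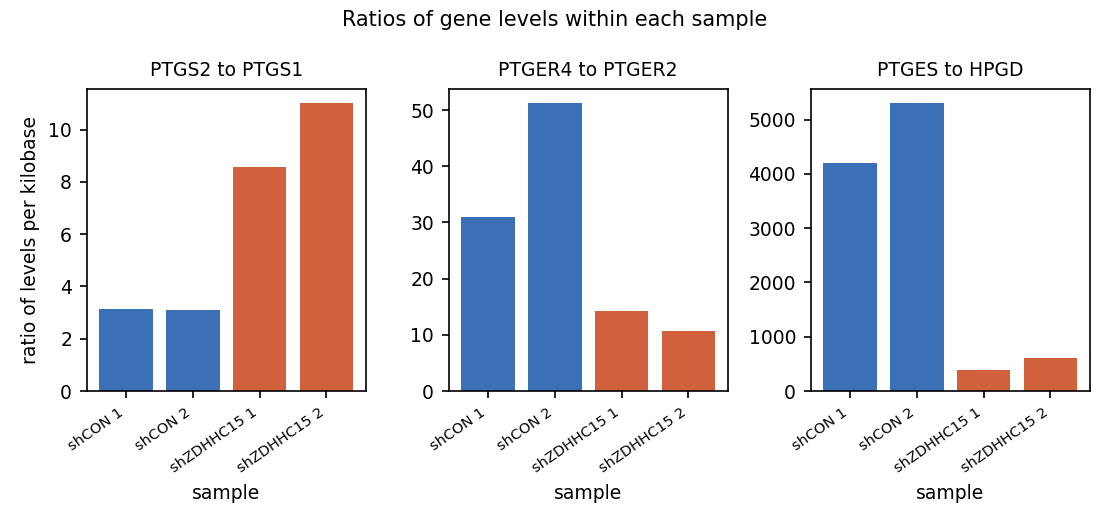
Ratio of 2 genes' levels per kilobase within each sample, on linear axes from 0. The PTGS2 to PTGS1 ratio is higher in both shZDHHC15 samples (8.55 and 11.0) than in both shCON samples (3.12 and 3.11), and the other 2 ratios are lower.

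The rest of the pathway held changes in both directions. Of 54 other genes of prostanoid and related lipid metabolism, all in the table, 30 passed the filter, and 4 were higher, 8 lower and 18 not called, which is 40.0% called beside 42.0% of all genes, at a median log2 change of 0.10. Without shCON 1, or scaled by library size alone, 8 were higher. No phospholipase A2 gene of 6 tested was higher, while PLA2G2F (log2 change -1.51, SE 0.24, edgeR adjusted p = 0.000163), PLA2G12A (-0.87) and PLA2G16 (-0.50) were lower. That is 50.0% called, near the 42.0% of all genes.

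Terminal synthases other than PTGES and PTGES2 moved both ways, with 2 higher and 2 lower of 5 tested. That is 80.0% called, beside 42.0% of all genes. AKR1C3, an aldo-keto reductase that makes prostaglandin F2 alpha, had 123 and 118 counts in shCON and 1534 and 1348 in shZDHHC15. That is a log2 change of 3.46 (SE 0.144, edgeR adjusted p = 1.42e-10), close to that of PLA2G4A, though reads of AKR1C3 can be shared with its near-identical relatives. AKR1B1, with the same activity, rose by 1.24 on the log2 scale (edgeR adjusted p = 0.00104). PTGES3, the cytosolic prostaglandin E synthase and HSP90 co-chaperone p23, fell by 0.36, and PRXL2B, a prostaglandin F synthase, fell by 0.69 on that scale (edgeR adjusted p = 0.00413 and 0.000139).

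The other roles had between 16.7% and 42.9% of their tested genes called, beside 42.0% of all genes. CBR3, a carbonyl reductase, was the 1 gene of 6 in inactivation and transport that rose (0.84 on the log2 scale, edgeR adjusted p = 0.00096). ALOXE3, an epidermal lipoxygenase, was the 1 of 6 in the lipoxygenase branch that fell (-1.45, edgeR adjusted p = 0.000379). Of 7 genes of arachidonate supply, LPCAT3, which places arachidonate in phospholipids, rose by 0.75, while FADS2, a fatty acid desaturase, fell by 0.73 and MGLL, which frees arachidonate by way of an endocannabinoid, by 0.64 on the log2 scale.

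**Figure D4:**
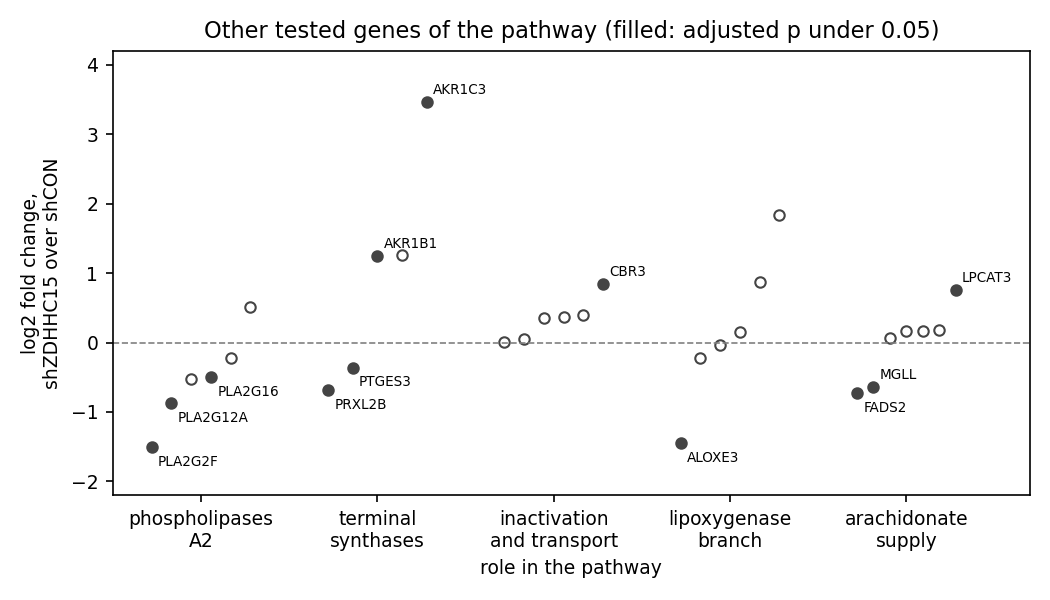
Log2 fold change (edgeR), shZDHHC15 over shCON, of the 30 other tested genes of the pathway by role; filled, named points passed an adjusted p of 0.05. AKR1C3 (3.46) stands highest and PLA2G2F (-1.51) lowest.

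PTGS2 RNA is short-lived in many cells because proteins bind AU-rich runs after its stop codon. The motif ATTTA was counted there, overlapping copies included, in the transcript with the longest such part. PTGS2 had 22 copies in 2562 bases, or 8.59 per kilobase, a density reached by 0.915% of 12894 tested coding genes, whose median was 1.48. Its densest 30 bases begin at the first base after the stop codon (GENCODE release 29), with the 3 copies in capitals.
PTGS2: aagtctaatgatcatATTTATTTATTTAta
As many copies in 30 bases occurred in 3.2% of genes. PLA2G4A had 8.46 copies per kilobase, which is 4 copies in 473 bases, with at most 1 in any 30 bases. PTGER4 had 6.63 per kilobase, PTGER2 4.34, HPGD 2.62, SLCO2A1 1.83, PTGS1 0.95 and PTGES 0.781, and PTGES2 had none. Whether these copies bear on the changes was not tested. This scan was also chosen after the counts had been seen. Of 10 genes whose proteins are known to act on such RNAs, 9 were tested: TIA1, a translational silencer, was higher (0.43 on the log2 scale, edgeR adjusted p = 0.00596), and RBM3, a cold-induced binding protein, and ZFP36L2, a decay factor, were lower (-0.65 and -0.33). That is 33.3% called, below the 42.0% of all genes. ELAVL1, which stabilises PTGS2 RNA, and ZFP36, which promotes its decay, were not called, with log2 differences of -0.19 and 0.01. The median of the 9 was -0.14, and without shZDHHC15 2 the number lower was 1.

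EP2 and EP4 raise cAMP, so 12 genes known to respond to cAMP were read beside PTGER4. PDE4B and PDE4D, phosphodiesterases that break cAMP down, were higher, PDE4B by 2.20 on the log2 scale (edgeR adjusted p = 2.86e-05 and 0.00869). DUSP1, a MAP kinase phosphatase, NR4A1, an orphan nuclear receptor, and PER1, a clock gene, were lower, at -1.21, -0.70 and -0.70. The other 7 were not called, so that 41.7% were called beside 42.0% of all genes, and the median was -0.16. Without shCON 2 or shZDHHC15 1 the number higher was 1.

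Genes within 100 kb of the 9 numbered 41, of which 19 were tested, with 5 higher and 3 lower (1 lower without shZDHHC15 1). That is 42.1% called, beside 42.0% of all genes. PTGES2 had 8 of the 19 tested neighbours and 4 of the 5 higher ones, among them LCN2, the iron-carrier protein lipocalin 2, with 33603 and 33021 counts in shCON and 64630 and 64216 in shZDHHC15 (log2 change 0.83, edgeR adjusted p = 2.84e-06). C9orf16, DNM1 and SLC25A25-AS1 also rose there, by 0.51, 1.34 and 1.73 on the log2 scale, and SLC25A25 fell by 0.38, though counts of the last pair may share reads if strand was not used. Beside PTGER4, PRKAA1, the catalytic subunit of AMP-activated kinase, rose by 0.32 and TTC33 fell by 0.55 on the log2 scale. Beside SLCO2A1, RYK fell by 0.31. TTC33 spans PTGER4, but no exon of the 9 genes overlapped an exon of another gene, and none held a stretch of 150 bases at 97% identity to another gene.

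For each called member, the coding gene most like it over the 4 samples was the one with the smallest distance between log2(CPM + 0.5) values centred per gene. It was IFI27 for PLA2G4A (distance 0.0724), PPM1H for PTGS1 (0.0541), BTN3A3 for PTGS2 (0.0804), GMNN for PTGES2 (0.00905), PLEKHS1 for HPGD (0.106) and EDN1 for PTGER4 (0.0734). EDN1, the endothelin-1 precursor, was at 708 CPM in both shCON samples and at 194 and 267 in shZDHHC15. The distance rests on 4 samples in 2 groups, and the added 0.5 lessens the change of PLA2G4A and HPGD.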

How the data were processed

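RNA-seq of HCC1954 cells was analysed in 4 samples, 2 per group. The authors deposited raw counts per gene, not normalized. The submitters' processing notes name HISAT2, StringTie, SAMtools and hg38 without roles or versions. The counting tool, annotation and use of strand are not given in the sources used here. All 58735 gene identifiers had the same start and end in GENCODE release 29. All count columns were used. The 9 genes and the other lists were chosen with earlier results of these data known. Counts were filtered with filterByExpr, scaled by TMM and compared by the quasi-likelihood test of edgeR 4.0.16 under R 4.3.3, with Benjamini-Hochberg adjustment over 15817 genes. CPM are counts scaled to the TMM library size, and levels between genes are divided by the deposited gene length. Ratios were tested by exact permutation. Replicates differed by more than counting noise (chi-square per degree of freedom 8.32 and 6.79). The fit was also run on simulated counts drawn independently for each sample, which cannot show how it behaves on technical replicates. DESeq2 1.42.0, other scalings, filters, a replicate block and leaving out each sample were alternatives. Of the pathway list, all prostanoid receptors with counts and, in each other role, the 2 largest rises and falls past the limit were named, and of the other lists the largest rise and fall; PLA2G16, ZFP36L2, ELAVL1, ZFP36, PDE4D, NR4A1 and PER1 were named after their values were seen. A count of 0 allows up to 3 counts, for counting error only.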

Additional observations from a re-analysis of the deposited data

How the results depend on the processing

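Of 239 recomputed values, 223 kept their direction and side of the threshold, or a count within 1.5 times. PTGES came to pass the limit with library size only (log2 change 0.30), at least 10 counts in every sample (0.24) and the replicate block (0.23, edgeR adjusted p = 0.0236), and PTGES2 missed it without a filter (0.28). The number of other pathway genes higher was 8 with library size only and 7 with the replicate block, against 4. Library size only moved the median log2 change of all genes from 0.02 to 0.09. Fits without 1 sample assume that the lone sample varies like the other group. They gave log2 changes of 3.21 to 4.13 for PLA2G4A, 0.63 to 1.10 for PTGS1, 2.42 to 2.57 for PTGS2, 0.13 to 0.30 for PTGES, 0.24 to 0.34 for PTGES2, 3.15 to 3.81 for HPGD, -0.99 to -0.56 for SLCO2A1 and -1.84 to -1.44 for PTGER4. PTGER2 ranged from -0.40 to 0.41 and was reversed without shCON 2 (-0.21) or shZDHHC15 2 (-0.40). The counts ranged from 4 to 6 members higher, 4 to 8 other pathway genes higher (8 without shCON 1), 1 to 2 RNA stability genes lower (1 without shZDHHC15 2), 1 to 3 cAMP genes higher (1 without shCON 2 or shZDHHC15 1) and 1 to 3 neighbours lower (1 without shZDHHC15 1). The cause was not tested. Same-numbered samples correlated at 0.061 in their deviations from the group means, so the numbers were not taken as pairs. The block moved the calls of PTGES and of the other pathway genes, and no other member's call. With at least 10 counts in every sample PLA2G4A and HPGD were not tested and gave no value. At this depth the other prostanoid receptors were below the filter.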

Other observations

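PTGS2 and PLA2G4A lie 148526 bases apart on chromosome 1 with 1 gene between them, which was below the filter. PACERR, a long non-coding RNA 195 bases from PTGS2, had 1 and 0 counts in shCON and 1 and 7 in shZDHHC15 and was not tested.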
